A study of Rattus norvegicus with 20 samples.

Results

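Cyclophosphamide was compared with saline in pachytene spermatocytes of the rat by measuring microRNAs (miRNAs) on 10 arrays, 5 per treatment, of the 20 arrays of the series. The arrays were chosen by the cell type and the treatment in their labels, and every array with those labels was used. All 10 came from male Sprague-Dawley rats. The cyclophosphamide rats were gavaged with 6 mg/kg of the drug and the saline rats with saline, in both cases on 6 days a week for 4 weeks. Spermatocytes were enriched by sedimentation at unit gravity (STA-PUT) and frozen, and 100 ng of total RNA was labelled with Cy3. Neither the age of the animals nor the purity of the cell fractions is given in the sources used here. The saline rats are numbered 13, 16, 25, 26 and 28, and the cyclophosphamide rats 7, 15, 16, 16 and 29. The number 16 occurs with 2 different years among the cyclophosphamide rats, which are written as the earlier and later rat 16. The numbers are taken to mark separate animals, and the p-values measure the spread between them as far as they do. Saline rat 16 and the cyclophosphamide rats of that number are different animals, since each received 1 treatment.

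Cyclophosphamide is a prodrug whose active products crosslink DNA. Pachytene spermatocytes are germ cells in the long prophase of meiosis, in which homologous chromosomes are paired and recombination breaks are repaired, and in which the X and Y chromosomes are largely silenced. A miRNA is a short RNA that represses messages to which its seed, bases 2 to 8 from its 5′ end, can pair, so miRNAs with 1 seed share many targets. The miR-34 and miR-449 family rises in male germ cells at meiosis and is needed, as a family, for normal spermatogenesis. A cluster of testis-expressed miRNAs lies on the X chromosome and remains expressed in meiosis in spite of the silencing of that chromosome.

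Of the 677 rat miRNAs on the array, 206 were detected on all 5 arrays of at least 1 treatment and were tested, and 196 of them were detected on all 10 arrays. RefSeq's table (build GRCr8) held a mature sequence under the same name for 185 of the 206. The sequences below are written 5′ to 3′ with the seed in capitals. The first 4 are 5p arms of the family made up by miR-34 and miR-449, which hold the brightest miRNAs of these cells and share 1 seed.
miR-34b-5p: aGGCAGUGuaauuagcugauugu
miR-449a-5p: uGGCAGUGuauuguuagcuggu
miR-34c-5p: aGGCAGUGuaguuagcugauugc
miR-34a-5p: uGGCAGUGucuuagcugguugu
miR-34b and miR-34c come from 1 locus at chr8:60306101-60306679 on the minus strand of GRCr8, and miR-449a and miR-34a from chromosomes 2 and 5.

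The next set holds 6 of the miRNAs with the smallest unadjusted p for the drug, all higher in cyclophosphamide rats, none of which passed the test. Among them 5 have a GC content from 54.5% to 77.3%, and miR-494-3p has 43.5%.
miR-760-5p: cCCCUCAGgccaccagagcccg
miR-494-3p: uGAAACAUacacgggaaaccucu
miR-483-5p: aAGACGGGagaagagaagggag
miR-214-3p: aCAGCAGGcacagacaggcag
miR-211-3p: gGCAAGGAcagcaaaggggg
miR-188-5p: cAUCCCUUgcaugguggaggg
The 3 matched miRNAs with the most negative drug differences follow, none of which passed either.
miR-7a-5p: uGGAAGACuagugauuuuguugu
miR-126a-5p: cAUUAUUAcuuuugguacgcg
miR-143-3p: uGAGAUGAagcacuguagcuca
The last set shows 7 miRNAs that were called between the slides of the hybridisation and not between treatments, and let-7a-5p, which was called in neither. It includes 3 members of the miR-29 family, which share a seed and moved in 2 directions, and miR-98-5p, whose seed is that of let-7a-5p.
miR-29a-3p: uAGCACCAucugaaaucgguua
miR-29b-3p: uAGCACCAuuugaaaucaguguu
miR-29c-3p: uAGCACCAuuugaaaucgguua
miR-98-5p: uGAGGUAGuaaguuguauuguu
let-7a-5p: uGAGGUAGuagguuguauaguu
miR-201-5p: cACUCAGUaaggcauuguuc
miR-878: gCAUGACAccauacuggguaga
miR-221-3p: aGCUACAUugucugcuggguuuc

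The arrays lay on 2 slides, with 2 saline and 2 cyclophosphamide arrays on slide 1 and 3 of each on slide 2, and each slide was scanned once. Between 205 and 281 miRNAs were detected per array, with means of 235.2 ± 29.6 (SD, n = 5) in saline and 232.8 ± 13.8 (SD, n = 5) in cyclophosphamide rats. Saline rat 26 was the brightest array: the 75th percentile of its spots before scaling was 489.9, against 204.7 to 327.1 on the other 9 arrays. The log2 profiles of the tested miRNAs correlated at r between 0.981 and 0.995 within a treatment and between 0.982 and 0.996 across treatments. Precision is limited by the number of arrays. Signals below are log2 of the scaled processed signal, whose floor is 3.60, and brightness depends on the probe as well as on the amount of the miRNA.

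The labelled cell type was checked against miRNAs known from cell types of the testis. Of 6 miRNAs of meiotic and later male germ cells, 5 were detected on all 10 arrays, and miR-449c-5p on 2. The log2 of their summed signal ran from 14.11 to 14.80 in saline and from 14.13 to 14.81 in cyclophosphamide rats. These miRNAs mark germ cells from meiosis on and do not tell spermatocytes from spermatids. Of 12 miRNAs of endothelium, muscle and mesenchyme, 7 were detected on all 10 arrays, among them miR-126a-3p and miR-143-3p, and 2, miR-133a-3p and miR-145-3p, on none. Their sum ran from 9.94 to 10.83 in saline and from 9.56 to 10.41 in cyclophosphamide rats. Of 6 blood and immune cell miRNAs, 3 were detected on all arrays (miR-142-3p, miR-150-5p and miR-223-3p), and the red cell miRNAs miR-451-5p and miR-144-3p on none. Their sum ran from 7.07 to 7.37 in saline and from 6.73 to 7.36 in cyclophosphamide rats. The sum of 5 spermatogonial miRNAs, 4 of them detected on all arrays, lay between 9.77 and 9.87 in saline and 9.57 and 9.89 in cyclophosphamide rats. That of 4 Sertoli cell miRNAs, 2 of them detected on all arrays, lay between 8.79 and 9.10 and between 8.78 and 9.09. Signals were summed before the log2, so the brightest member weighs most. In saline rats miR-21-5p alone averaged 9.58 among the spermatogonial miRNAs, and miR-212-3p 8.48 among those of Sertoli cells. These 2 sums therefore mostly follow 1 miRNA each. The treatments overlapped in each of these sums. In exact two-sided permutation tests over all assignments of the arrays to groups of 5, none of 11 array-wide measures passed: the unadjusted p-values lay between 0.151 and 0.960, and the adjusted p was 0.960 for each. The smallest p that such a permutation test can give here is 0.0079, so 1 measure alone could not have passed after adjustment over the 11.

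The question was whether 4 weeks of the drug alter the miRNAs of these meiotic cells. None of the 206 passed limma's test at a Benjamini-Hochberg adjusted p below 0.05, so 0% were called. Differences were small: the median absolute log2 difference was 0.06, 127 miRNAs lay within 0.1 of 0, and the largest difference, 0.40 for miR-494-3p, is 1.32-fold. For 204 of the 206 miRNAs the whole 95% interval was smaller than a 2-fold change up or down, and for 181 it was smaller than 1.5-fold. Close to the floor, signals are compressed, which narrows both the differences and these intervals. Of 2 miRNAs close to the floor, miR-483-3p ran from -0.04 to 0.998 and miR-760-5p from 0.04 to 0.86 across the settings run, without a call. The median standard error was 0.11, so with 5 rats a group differences of that order were not detectable. Taken one by one, 18 miRNAs had an unadjusted p under 0.05, which is 8.74%, and all 18 were higher in cyclophosphamide rats. Over all 206, 127 differences were above 0 and 79 below, with a median of 0.03. No alternative setting called a miRNA either: array weights gave 30 with an unadjusted p under 0.05 and a smallest adjusted p of 0.163, and a fit of all 20 arrays of the series gave 1.

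**Figure D1:**
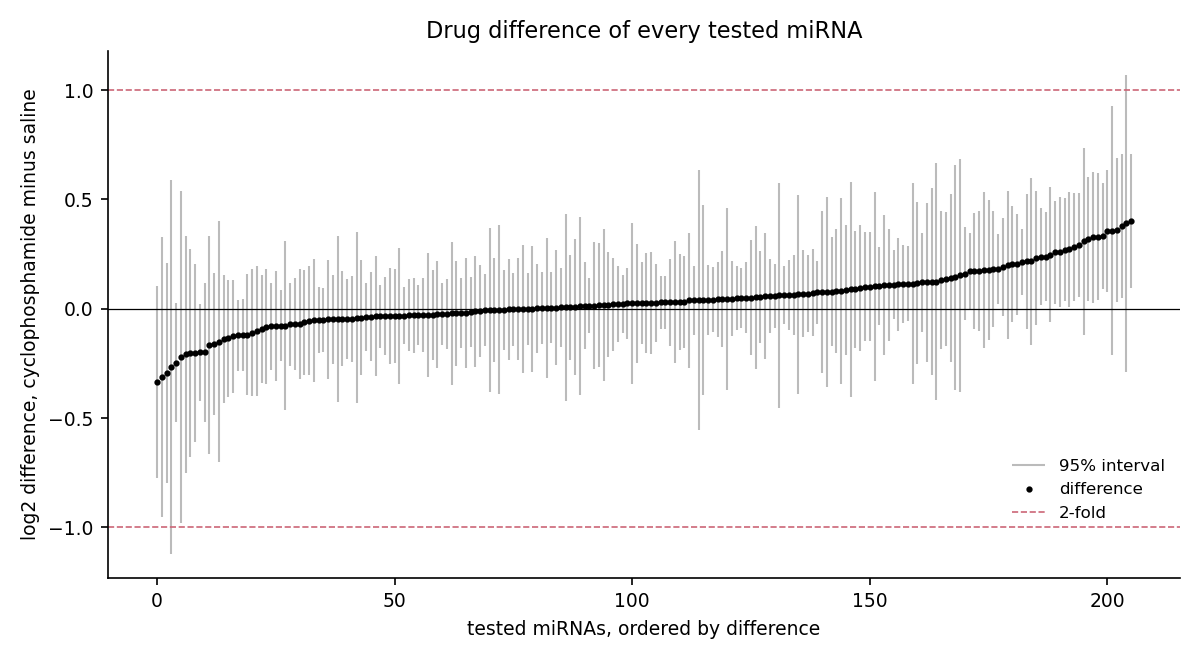
Log2 difference between cyclophosphamide and saline (vertical axis) of each of the 206 tested miRNAs, ordered from lowest to highest, with its 95% interval from limma (grey line) and the 2-fold lines (dashed). The differences run from -0.34 to 0.40, and 204 intervals lie between the dashed lines.

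miR-320-3p had the smallest p. Its log2 signal was 3.76, 3.70, 3.63, 3.60 and 3.74 in saline rats 13, 16, 25, 26 and 28. It was 3.80 and 3.95 in cyclophosphamide rats 7 and 15, 3.80 and 3.94 in the earlier and later rat 16, and 4.01 in rat 29. The groups did not overlap, but every value lay close to the floor. Limma gave a difference of 0.21 ± 0.07 (SE) and an adjusted p of 0.485. miR-3564 was the only other miRNA whose groups did not overlap. It lay at 3.60 to 3.64 in saline rats, which is at or near the floor, and at 3.66 to 3.97 in cyclophosphamide rats, with a difference of 0.18 ± 0.07 (SE). Together they make 0.971% of the tested miRNAs with cyclophosphamide rats wholly above, and 0% had them wholly below.

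miR-494-3p lies in the imprinted cluster between Dlk1 and Dio3, showed the widest drug difference and was well above the floor. In saline rats 13, 16, 25, 26 and 28 its log2 signal was 9.75, 9.98, 9.73, 9.63 and 9.84. In cyclophosphamide rats 7 and 15 it was 9.85 and 10.44, in the earlier and later rat 16 it was 9.84 and 10.40, and in rat 29 it was 10.39. Of the cyclophosphamide rats, 3 thus lay above every saline rat, and rat 7 and the earlier rat 16 lay inside the saline range. Limma gave a difference of 0.40 ± 0.14 (SE) and an adjusted p of 0.485, and it was 0.28 on slide 1 and 0.48 on slide 2.

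miR-211-3p stood at 5.74, 6.20, 5.88, 5.55 and 6.35 in the saline rats in the same order. In cyclophosphamide rats 7, 15, earlier 16, later 16 and 29 it stood at 6.55, 6.22, 6.12, 6.42 and 6.32. The groups overlapped, since saline rats 16 and 28 reached the range of the treated rats, and the difference was 0.38 ± 0.15 (SE). miR-483-5p, from an intron of the imprinted growth factor gene Igf2, stood at 5.93, 6.29, 6.00, 5.74 and 5.95 in saline rats. It stood at 6.14, 6.22, 6.15, 6.39 and 6.47 in cyclophosphamide rats. Here saline rat 16 alone lay inside the treated range, and the difference was 0.29 ± 0.11 (SE).

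The other miRNAs among the 10 smallest p-values were miR-760-5p (0.33 ± 0.11, SE), miR-3546 (0.36 ± 0.13), miR-214-3p (0.24 ± 0.09), miR-188-5p of the X chromosome (0.27 ± 0.11) and miR-150-3p (0.28 ± 0.11). Each had an adjusted p of 0.485 by limma, as had miR-125a-3p (0.36 ± 0.15) and the X-linked miR-351-3p (0.33 ± 0.13). In all of them the groups overlapped. Saline rat 26, the brightest array, had the lowest value of all 10 arrays in 12 of the 18 miRNAs with an unadjusted p under 0.05. All 18 were higher in cyclophosphamide rats, so the lowest value is likely to be that of a saline rat. The share over all tested miRNAs was not computed. Without saline rat 26, the number of miRNAs with an unadjusted p under 0.05 was 6 in place of 18. The number was 7 without cyclophosphamide rat 29, 8 without the later cyclophosphamide rat 16, 10 without saline rat 13 and 11 without saline rat 28.

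**Figure D2:**
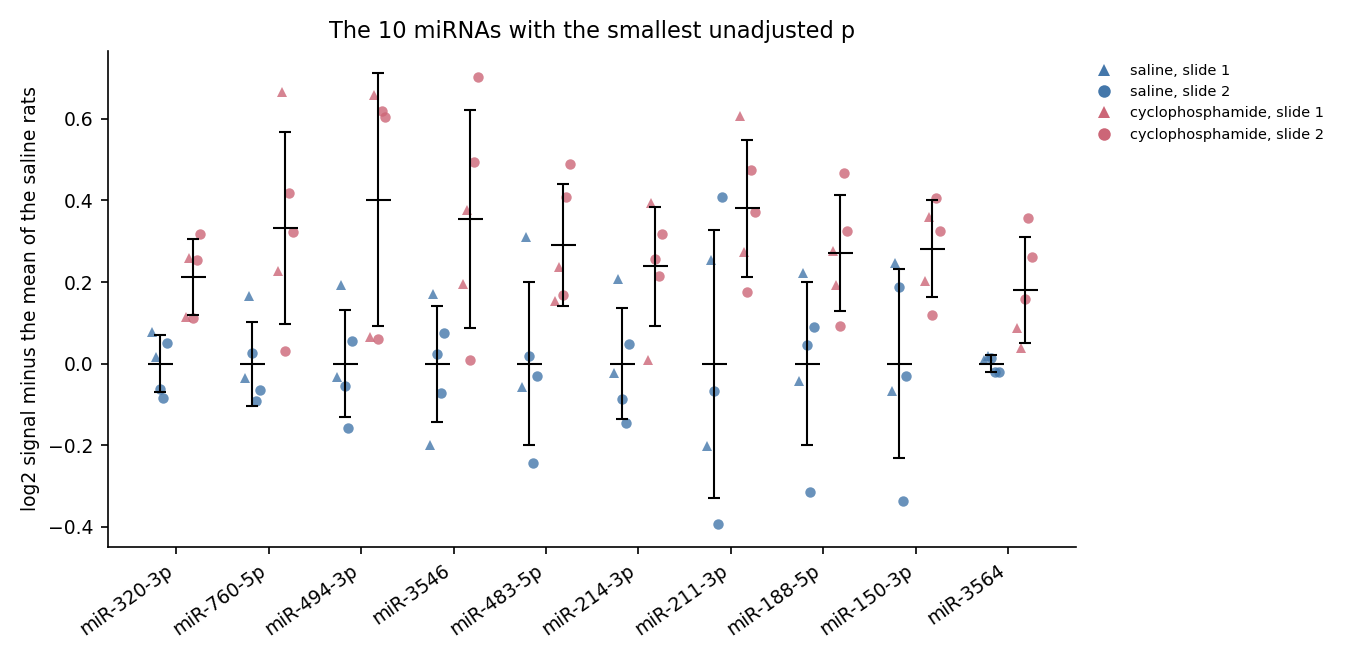
Log2 signal of the 10 miRNAs with the smallest unadjusted p, as the difference from the mean of the 5 saline rats (vertical axis), with 1 point per rat, coloured by treatment and shaped by slide. Bars are the mean and SD of 5 rats; the groups overlap in 8 of the 10 miRNAs and are apart for miR-320-3p and miR-3564.

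The other arm of the same precursor is another miRNA, read on the same 10 arrays. Among the 32 precursors with both arms tested, the drug difference of the arms had the same sign in 25. The share for unrelated pairs was not computed, and 127 of all 206 differences were above 0. miR-125a-5p stood at 0.01 ± 0.09 (SE) beside 0.36 for miR-125a-3p, miR-760-3p at 0.14 ± 0.17 beside 0.33 for miR-760-5p, and miR-483-3p at 0.06 ± 0.13 beside 0.29 for miR-483-5p. The mean log2 levels of miR-760-5p and miR-483-3p, 3.85 and 3.77, were close to the floor of 3.60, which limits their differences. The arms of miR-150 went opposite ways, at -0.27 ± 0.39 (SE) for miR-150-5p and 0.28 ± 0.11 for miR-150-3p. Probes of 1 miRNA were compared only where the second probe was over 0.5 above the floor, a limit not applied to the arms. In these 132 miRNAs the brightest and the second probe gave drug differences within 0.12 of each other.

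No drug difference below 0 had an unadjusted p under 0.05. miR-7a-5p, which targets messages of growth factor signalling, had the most negative one. Its log2 signal was 6.00, 4.83, 5.74, 5.37 and 5.13 in saline rats 13, 16, 25, 26 and 28. It was 5.06, 5.09, 5.40, 4.91 and 4.95 in cyclophosphamide rats 7, 15, earlier 16, later 16 and 29. Saline rats 13 and 25 were high and saline rat 16 was the lowest of all 10, so the treated range lay inside the saline range. Limma gave a difference of -0.34 ± 0.20 (SE) and an adjusted p of 0.910. miR-497-5p and miR-195-5p, which come from 1 locus and share the seed of miR-16-5p, stood at -0.25 ± 0.12 and -0.20 ± 0.10 (SE), both with an adjusted p of 0.697.

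In the brightest germ cell family, the miR-34 and miR-449 miRNAs, no drug difference was called. miR-34b-5p, the brightest tested miRNA, stood at 13.32, 13.46, 12.83, 12.83 and 12.97 in saline rats 13, 16, 25, 26 and 28. It stood at 13.21, 13.47, 12.89, 13.11 and 12.82 in cyclophosphamide rats 7, 15, earlier 16, later 16 and 29. The treatments covered the same range, and the high values were those of slide 1 in both. The log2 difference was 0.02 ± 0.16 (SE), with a 95% interval from -0.33 to 0.37. miR-34c-5p stood at 0.01 ± 0.19 and miR-449a-5p at -0.0049 ± 0.17. miR-34a-5p, the member that p53 induces in many tissues, stood at -0.0047 ± 0.11 (SE). The other arm of miR-34c, miR-34c-3p, was at 0.39 ± 0.31 (SE), with an interval from -0.29 to 1.07 that is among the 2 reaching past 2-fold. Over the 7 tested members of the family the median difference was 0.02, beside 0.03 for all tested miRNAs, and none was called.

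Cyclophosphamide's products damage DNA, and 19 tested miRNAs stood in a list of the p53 and DNA damage response. None of them was called in either direction, none had an unadjusted p under 0.05, and their median difference was 0.0061. For 16 of the 19 the 95% interval lay within 1.5-fold. miR-16-5p, a brake on cyclins, stood at 0.00073 ± 0.13 (SE), miR-125b-5p, which targets the p53 message, at -0.03 ± 0.13, and miR-143-3p at -0.29 ± 0.23. Of 8 miRNAs tied to oxidative stress and xenobiotics, 1 had an unadjusted p under 0.05, the already named miR-494-3p, beside 8.74% of all tested miRNAs, and the median was -0.03. miR-21-5p, widely induced by injury and growth signals, stood at 9.58 ± 0.05 (SD, n = 5) in saline and 9.53 ± 0.11 (SD, n = 5) in cyclophosphamide rats.

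The miR-29 family and miR-148b-3p can target DNA methyltransferases. Their 4 tested members had a median difference of 0.0032, at 0.0012 ± 0.09 (SE) for miR-29a-3p, -0.0099 ± 0.10 for miR-29b-3p and 0.02 ± 0.08 for miR-29c-3p. All 4 intervals lay within 1.5-fold.

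On the X chromosome, 24 tested miRNAs were in the list of the spermatogenesis cluster and 14 in a list of other X-linked miRNAs, which does not hold every tested miRNA matched to that chromosome. In the cluster none was called and none had an unadjusted p under 0.05, with a median of 0.05 and a range from -0.12 to 0.22. Of the 24, 22 were above 0, beside 127 of all 206. Within slide 1 the median of the cluster was -0.05 and within slide 2 it was 0.12, beside -0.0033 and 0.05 for all tested miRNAs. The brightest members were miR-741-3p at 0.04 ± 0.07 (SE), miR-883-3p at 0.0035 ± 0.07 and miR-463-3p at 0.06 ± 0.07. miR-878 had the largest difference, 0.22 ± 0.17 (SE). Of the 14 in the other list 2 had an unadjusted p under 0.05, miR-351-3p and miR-188-5p, beside 8.74% of all tested miRNAs, and the median was 0.03. miR-652-5p and miR-652-3p stood at 0.0061 ± 0.08 and 0.08 ± 0.11 (SE).

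Families that control proliferation and differentiation had median differences between -0.08 and 0.01. The 9 tested members of let-7, which marks differentiated cells, had a median of -0.03 and a range from -0.12 to 0.08. There let-7a-5p stood at -0.03 ± 0.08 (SE), let-7f-5p at -0.02 ± 0.06, let-7c-5p at -0.05 ± 0.09 and let-7i-5p at -0.12 ± 0.07. The 11 members of the miR-17 and miR-106b clusters, which promote proliferation, had a median of -0.02. Among them miR-19b-3p stood at -0.02 ± 0.15, miR-20a-5p at -0.02 ± 0.11, miR-92a-3p at 0.05 ± 0.19 and miR-25-3p at -0.11 ± 0.13. For miR-16-5p and the 4 other tested miRNAs of its family the median was -0.08, with a range from -0.25 to 0.0057 and miR-15b-5p at -0.08 ± 0.17. The 9 of the miR-30 family had a median of 0.01. Its brightest members miR-30b-5p, miR-30c-5p and miR-30e-5p stood at -0.05 ± 0.08, 0.06 ± 0.06 and -0.03 ± 0.07, and miR-30d-5p at 0.07 ± 0.09. All members of these 4 lists had intervals within 1.5-fold, and none was called.

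In the imprinted Dlk1-Dio3 region the 5 tested members had a median of 0.22, and 2 of them, miR-494-3p and miR-770-3p, had an unadjusted p under 0.05, beside a median of 0.03 and a share of 8.74% over all tested miRNAs. miR-134-5p stood at 0.19 ± 0.10 (SE) and miR-487b-3p at -0.07 ± 0.11. The array carries 81 miRNAs of that cluster, and the rest were not detected on enough arrays to be tested. The miR-10, miR-99, miR-100 and miR-125 list had a median of 0.01 over 9 members, with miR-125b-5p, miR-99a-5p at -0.02 ± 0.11 (SE) and miR-100-5p at 0.02 ± 0.12 as the brightest. miR-103-3p and miR-107-3p stood at 0.05 ± 0.08 and 0.05 ± 0.10, and miR-181a-5p and miR-181b-5p at 0.0061 ± 0.11 and 0.20 ± 0.12. miR-7a-5p was the 1 tested member of its family. The brightest miRNA outside the lists, miR-1224, stood at 0.25 ± 0.14 (SE). None of these was called.

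Of the 5 miRNAs that varied most from rat to rat, 3 are known from endothelium or lymphocytes and 1 from germ cells. Over all 10 arrays the SD was 0.69 for miR-150-5p, a lymphocyte miRNA, 0.61 for miR-126a-3p and 0.53 for miR-126a-5p, both from the endothelial gene Egfl7, 0.57 for miR-34c-3p and 0.48 for miR-466b-1-3p. The median SD of all tested miRNAs was 0.19. miR-126a-3p stood at 6.26, 7.10, 8.13, 6.58 and 7.33 in saline rats 13, 16, 25, 26 and 28. It stood at 6.92, 7.74, 6.51, 6.74 and 6.396 in cyclophosphamide rats 7, 15, earlier 16, later 16 and 29. Saline rats 25 and 28 and cyclophosphamide rat 15 were the highest, so the high values came from both treatments. miR-150-5p ordered the same rats at the top, at 5.79 in saline rat 25, 5.32 in cyclophosphamide rat 15 and 5.02 in saline rat 28, and at 3.68 to 4.63 in the other 7. The same 3 rats had the highest miR-126a-5p and the highest miR-23a-3p, at 7.79, 7.52 and 7.58.

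Several somatic cell miRNAs had drug differences with wide intervals and opposite signs on the slides. For miR-126a-3p the drug difference was -0.22 ± 0.35 (SE), at 0.65 on slide 1 and -0.80 on slide 2. For miR-150-5p it was -0.27 ± 0.39, at 0.79 and -0.97, and its interval, from -1.12 to 0.59, is the other that reaches past 2-fold. miR-143-3p, of smooth muscle, stood at -0.29, with 0.25 on slide 1 and -0.65 on slide 2, and miR-145-5p at -0.15, with 0.45 and -0.55. Over the 8 tested miRNAs of endothelium, muscle and mesenchyme the median was -0.18 and over the 3 of blood and immune cells -0.21, in neither case with a call. Of the 8, 7 were below 0. The other, miR-214-3p, was above 0 at 0.24 and was the only 1 with an unadjusted p under 0.05 by limma. Of the 3, 2 were below 0 and miR-223-3p stood at 0.0061. The 5 of the miR-23, miR-24 and miR-27 clusters, which many somatic cells express, had a median of -0.16, and 0.25 and -0.41 within the slides. There miR-23a-3p stood at -0.20 ± 0.19 (SE), miR-23b-3p at -0.16 ± 0.15, miR-24-3p at -0.10 ± 0.14 and miR-27a-3p at -0.20 ± 0.22. In a bulk fraction, fewer cells of a type and less RNA per cell cannot be told apart.

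**Figure D3:**
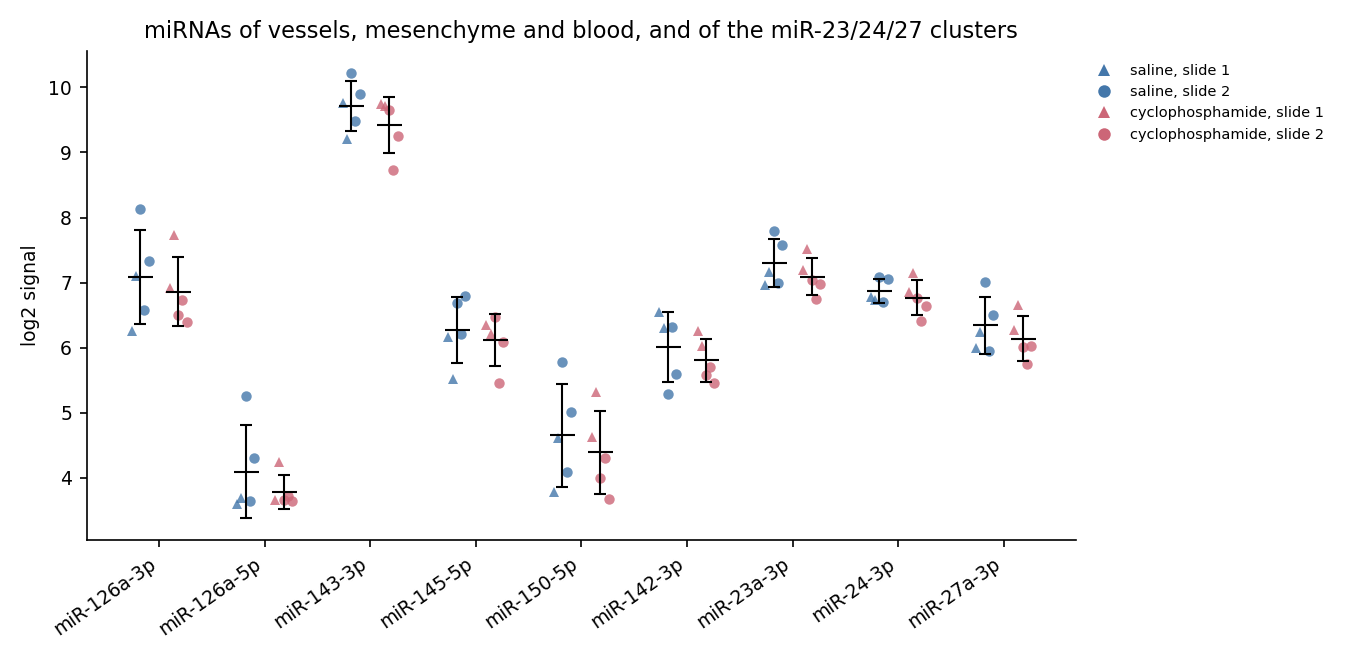
Log2 signal (vertical axis) of 9 miRNAs known from vessels, mesenchyme, blood and other somatic cells, with 1 point per rat, coloured by treatment and shaped by slide, and bars for the mean and SD of 5 rats. For miR-126a-3p, miR-126a-5p and miR-150-5p the highest points are saline rats 25 and 28 and cyclophosphamide rat 15, and the treatments overlap throughout.

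The difference between the drug's effect on slide 2 and on slide 1 was tested directly. Limma called 0%, with 25 of the 206 at an unadjusted p under 0.05 and a smallest adjusted p of 0.366. The largest such differences were those of miR-150-5p at -1.75, miR-126a-3p at -1.45, miR-126a-5p at -1.04, miR-145-5p at -0.998 and miR-27a-3p at -0.92. The drug difference had the same sign on both slides for 85 of the 206 miRNAs. Fitted on 1 slide alone, limma called 0 on slide 1 and 0 on slide 2, where 4 and 29 miRNAs had an unadjusted p under 0.05.

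The slides themselves differed more than the treatments. With treatment in the model, limma called 60 of the 206 miRNAs between slide 2 and slide 1, or 29.1%, of which 17 (8.25%) were higher on slide 2 and 43 (20.9%) lower. The slide accounted for a median of 24.5% of a miRNA's variance over the 10 arrays and the treatment for 4.92%. The first principal component, with 39.0% of the variance, held the 4 arrays of slide 1 between -2.94 and -0.56 and the 6 of slide 2 between 0.70 and 2.24. Slide, scan and the rats placed on each slide cannot be told apart. The split depended on the scaling: 18 higher and 22 lower with the 75th percentile of all spots, 22 and 22 with quantile normalization, 29 and 38 with the mean of all probes, and 0 with normexp, where 95 had an unadjusted p under 0.05. Normexp also moved the median slide difference of all tested miRNAs from -0.04 to -0.45, and 7 of the 17 then remained above 0. Set against that shifted median, 13 of the 17 stayed above it, and 19 of the 43 stayed below it.

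The germ cell family was among the miRNAs lower on slide 2. miR-34c-5p stood between 12.73 and 12.97 on the 4 arrays of slide 1. On the 6 arrays of slide 2 its lowest, median and highest values were 12.19, 12.25 and 12.41, so the slides did not overlap. Limma gave a difference of -0.58 ± 0.07 (SE) and an adjusted p of 0.000636. miR-449a-5p and miR-34b-5p fell by 0.50 and 0.46, while miR-34a-5p, which shares their seed but not a locus with either, stood at 0.09 ± 0.11 with overlapping slides. Quantile normalization gives the brightest probes fixed values by construction, and there all 3 differences were 0. With the mean of all probes miR-449a-5p stood at -0.21 and its call was lost. In the family's list 4 of 7 tested members were lower and none higher, beside 20.9% and 8.25% of all tested miRNAs. The number lower was 3 with the percentile of all spots or the mean of all probes, and 0 with quantile normalization or normexp. miR-34c-3p stood at -0.66 ± 0.25 (SE) and, in limma's test, at an adjusted p of 0.0796, which became 0.019 without saline rat 13 and 0.0269 without saline rat 26.

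The proliferation clusters went the same way: 7 of the 11 tested members of the miR-17 and miR-106b list were lower on slide 2 and none higher, again beside 20.9% and 8.25% of all tested miRNAs. The number lower was 4 with the percentile of all spots or quantile normalization, 6 with the mean of all probes and 0 with normexp. miR-92a-3p stood at -0.55 ± 0.10 (SE) and miR-19b-3p at -0.39. miR-15b-5p and miR-16-5p, from 1 locus, fell by 0.54 and 0.38. miR-375-3p, known from pancreatic islets, was between 6.65 and 7.05 on slide 1 and between 6.04 and 6.16 on slide 2, a difference of -0.66 ± 0.07 (SE). These are values of the brightest probe, and the second probes gave smaller slide differences. They were -0.26 for miR-92a-3p, -0.23 for miR-19b-3p, -0.16 for miR-15b-5p, -0.13 for miR-16-5p and -0.32 for miR-375-3p. The immune cell miRNAs miR-142-3p and miR-223-3p fell by 0.63 and 0.51.

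Of the miRNAs higher on slide 2, 10 were among the 40 tested miRNAs matched to the X chromosome, or 25.0% of them, beside 5 of 145 matched to other chromosomes, or 3.45%. In the spermatogenesis cluster 8 of 24 were higher and 2 lower, beside 8.25% and 20.9% of all tested miRNAs. The number higher was 8 with the percentile of all spots, 10 with quantile normalization, 12 with the mean of all probes and 0 with normexp. miR-201-5p was between 6.93 and 7.40 on slide 1 and had a lowest, median and highest value of 7.51, 7.79 and 8.003 on slide 2. The difference was 0.66 ± 0.11 (SE). miR-878 stood at 0.54 ± 0.07, and miR-221-3p, an X-linked miRNA of undifferentiated spermatogonia, at 0.68 ± 0.13. The second probes of miR-201-5p and miR-221-3p gave 0.86 and 0.76. miR-352 had the largest slide difference of all, from 3.90 to 4.28 on slide 1 and from 4.89 to 5.07 on slide 2, a difference of 0.87 ± 0.08 (SE). With normexp, miR-201-5p stood at 0.31, while miR-352, miR-221-3p and miR-878 turned below 0 but stayed above the normexp median of -0.45.

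Members of 1 seed family differed between slides in both directions. In the miR-29 family, miR-29a-3p and miR-29b-3p were lower on slide 2, at -0.23 ± 0.06 and -0.25 ± 0.05 (SE), and miR-29c-3p was higher, at 0.19 ± 0.05. The falls were smaller with the second probes, which gave -0.09 for miR-29a-3p, -0.01 for miR-29b-3p and 0.28 for miR-29c-3p. Counted from the 5′ end, the sequences of miR-29a-3p and miR-29c-3p differ at 1 base, C10U. With the percentile of all spots, quantile normalization or the mean of all probes, the calls of miR-29a-3p and miR-29b-3p were lost, and without saline rat 16 those of miR-29a-3p and miR-29c-3p. Among the 8 tested miRNAs with the let-7 seed, miR-98-5p alone was called, at 0.59 ± 0.09 (SE), with let-7a-5p at -0.12 ± 0.07.

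**Figure D4:**
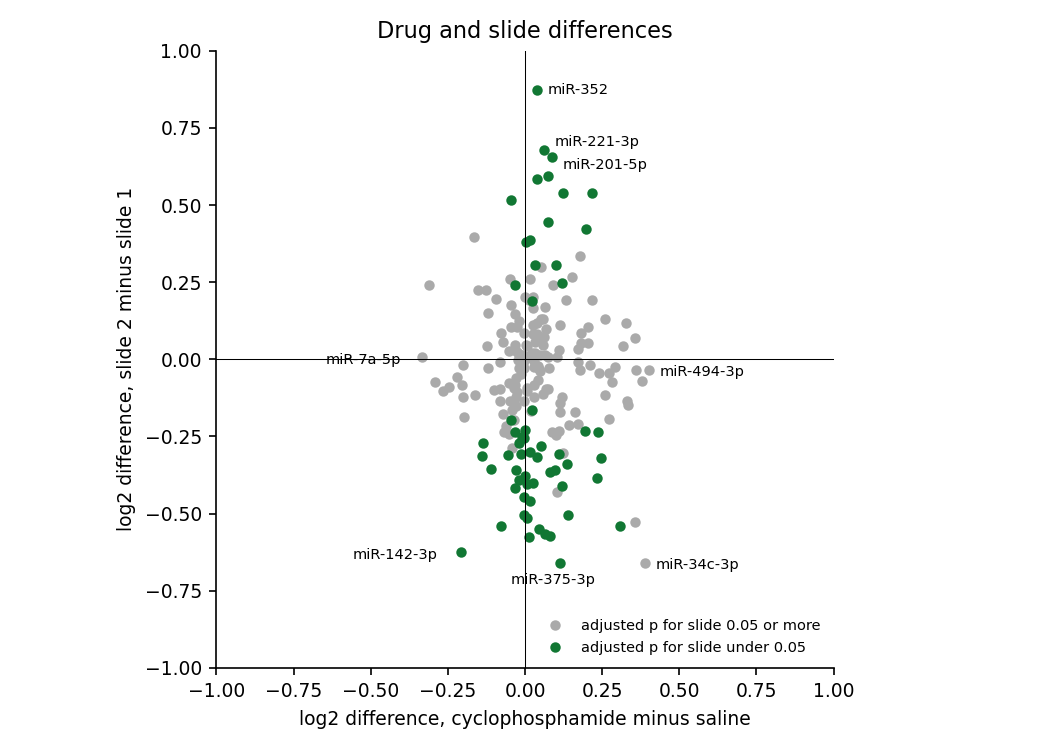
For each of the 206 tested miRNAs, the log2 difference between cyclophosphamide and saline (horizontal axis) and between slide 2 and slide 1 (vertical axis) on equal scales; green points are the 60 called between slides. The vertical spread, up to 0.87, exceeds the horizontal spread, up to 0.40.

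The round spermatid arrays of the series give the slide difference in other samples, 4 arrays on slide 1 and 2 on slide 2. Of the 17 miRNAs higher on slide 2 in pachytene spermatocytes, 16 were higher there too, beside 86 of all 206. Of the 43 lower ones, 34 were lower there, beside 119 of all 206. These are counts of signs with no test. Slide 2 holds 1 spermatid array of each treatment, but slide 1 holds more from cyclophosphamide than from saline rats. Slide and treatment are therefore partly mixed in the spermatids. Cyclophosphamide rat number 15 occurs on slide 1 in both cell types, so the cell types may share animals.

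The drug difference varied with the base composition of the miRNA. Over the 185 miRNAs with a sequence, its correlation with the GC content of the mature sequence was 0.48 (Pearson) and 0.44 (Spearman). The miRNAs are not independent replicates and share the 10 arrays, so this is a description. They were split by GC content into 3 groups of similar size. In the GC-rich group of 58, with a GC content from 52.2% to 77.3%, the median drug difference was 0.11, and 48 were above 0. In the AU-rich group of 65, from 27.3% to 42.9%, the median was -0.0047 and 27 were above 0. Of the 15 matched miRNAs with an unadjusted p under 0.05, 13 were in the GC-rich group and 0 in the AU-rich group. The GC-rich group was also dimmer, with a median log2 level of 4.86 against 5.94. Within slide 1 the medians of the GC-rich and AU-rich groups were 0.11 and -0.06, and within slide 2 they were 0.15 and 0.01. Pearson's r lay between 0.31 and 0.53 under every other setting run, at 0.33 with normexp and at 0.34 without saline rat 26.

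Per array, the median deviation of the GC-rich group from each miRNA's mean over the 10 arrays, less that of the AU-rich group, gives the balance of the 2 groups. It was -0.11, 0.05, 0.01, -0.23 and -0.09 in saline rats 13, 16, 25, 26 and 28. It was 0.17, 0.11, -0.05, 0.06 and 0.06 in cyclophosphamide rats 7, 15, earlier 16, later 16 and 29. The groups overlapped, since saline rats 16 and 25 lay above the earlier cyclophosphamide rat 16. The lowest value was that of saline rat 26, the array with the highest 75th percentile before scaling, followed by saline rats 13 and 28. The part of overall brightness in the drug differences was not tested.

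**Figure D5:**
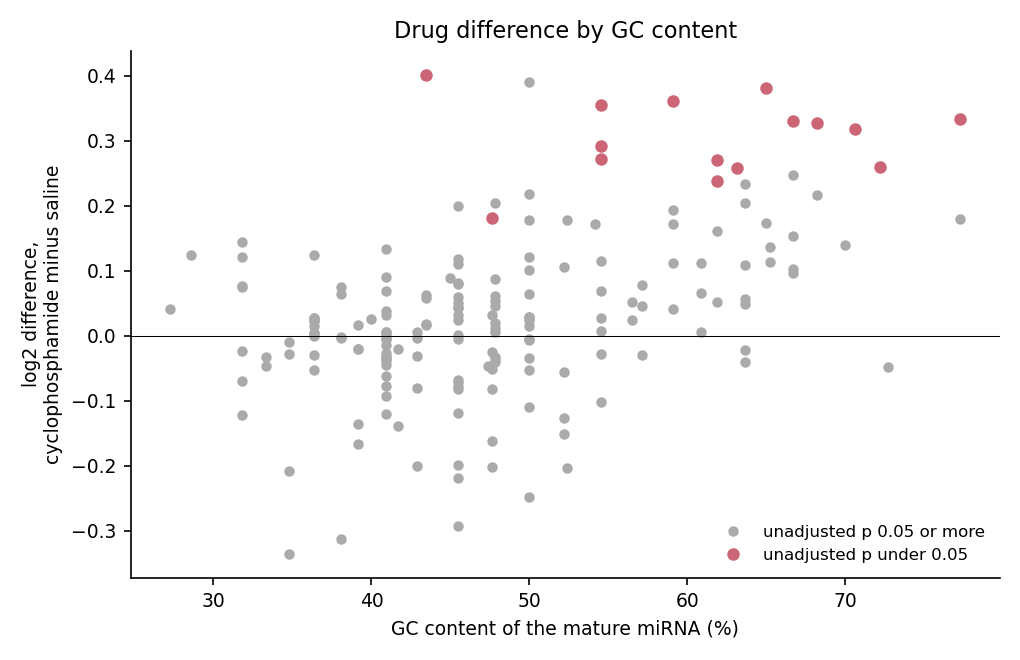
Log2 difference between cyclophosphamide and saline (vertical axis) against the GC content of the mature miRNA in percent (horizontal axis) for the 185 tested miRNAs with a RefSeq sequence; red points have an unadjusted p under 0.05. All red points lie above 0, and 13 of the 15 lie at a GC content of 52.2% or more.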

How the data were processed

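Per the file headers, the deposited scanner files hold 1-colour spot intensity values made with Agilent Feature Extraction 11.5.1.1, background-subtracted but not scaled between arrays. Each array has 14255 spots, of which 13540 carry probes for 677 miRNAs and 715 are controls. The header build differs from GRCr8, from which RefSeq's coordinates are taken by name. Control spots and outlier spots (472 to 565 per array) were left out, and no spot was saturated. For scaling, the 75th percentile of the 2100 spots well above background on all 10 arrays was set equal on every array. A common floor was then applied, and the log2 of it is 3.60. The share of spots well above background was 22.3% to 31.4%. The brightest of 1 to 4 probes stood for a miRNA, and 206 miRNAs detected by Feature Extraction on all arrays of at least 1 treatment were tested.

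The treatment comparison used limma 3.58.1 with R 4.3.3 on the 10 arrays alone (8 residual degrees of freedom), with Benjamini-Hochberg adjustment over the 206 miRNAs and a threshold of 0.05. Slide, and treatment by slide, were fitted likewise. Other sums and exact tests used Python 3.11.15 and SciPy 1.17.1. The procedure was tested on simulated data. The planned normexp correction needs a mean spot signal, so it was run on the median signals, a setting chosen after seeing the data, as were the GC and spermatid descriptions. The deposited value table holds log2 values centred by the authors, judged from the values, with column medians from -0.12 to 0.13 and a scaling not given in the sources used here. It was used as an alternative, for the 44 tested miRNAs whose values followed the scanner data (r over 0.5).

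The miRNAs named are those with the 10 smallest p-values, the 5 largest differences each way, the 10 brightest, the 5 most variable, those whose groups did not overlap, the 3 brightest and the most different of each list, the 5 largest slide and slide-by-treatment differences, and the other arms of the first 2 sets. Further miRNAs with large slide differences were chosen after their values were seen. The members and lists were chosen with earlier results of these data known.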

Additional observations from a re-analysis of the deposited data

Results flagged for a closer look

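In 166 groups of 5 rats (the named miRNAs and the array-wide measures in each treatment), 1 value stood far from the other 4 by Dixon's criterion (0.71 for 5 samples). Chance gives about 1 in 20 groups, so this is fewer than chance would give. The endothelial miR-126a-5p was at 4.24 in cyclophosphamide rat 15 and between 3.65 and 3.72 in the other cyclophosphamide rats. Those lower values are close to the floor of 3.60, where signals are compressed, which makes the distance of rat 15 look larger by this criterion. Cyclophosphamide rat 15 also had the highest miR-126a-3p and miR-150-5p of its group.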

How the results depend on the processing

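No setting called a miRNA for the drug: 0 under each of 29 alternatives, with a smallest adjusted p between 0.163 and 0.999 and between 0 and 30 miRNAs at an unadjusted p under 0.05. Leaving out 1 array gave 0 calls each time, with 6 to 24 such miRNAs. The scaling moved the median drug difference of all tested miRNAs from 0.03 to -0.14 without scaling, -0.35 with the dmr spike-in controls and 0.30 with normexp, so that the sign of 23, 40 and 22 of the 72 named miRNAs turned, none of them called. Within slide 1 the sign of 32 turned. The interaction stayed at 0 calls. No array-wide measure passed without 1 array, where 1 measure alone could not have passed either. Within a slide no measure could pass, since 2 or 3 arrays per treatment allow too few assignments, so nothing follows from that. The slide calls numbered 40 to 67 with other settings apart from normexp, and 43 to 68 without 1 array. With normexp they numbered 0. The slide difference was then -0.20 for miR-221-3p, 0.023 for miR-29a-3p, -0.39 for miR-352, -0.43 for miR-878 and -0.43 for miR-98-5p. These are opposite in sign to the main values. Each lies above the normexp median of -0.45, as miR-221-3p, miR-352, miR-878 and miR-98-5p also did in the main values. For miR-29a-3p, which was lower on slide 2 in the main values, the direction is reversed against the median too. The cause was not tested. No paired analysis was possible because the treatments share only the number 16, and rats of different treatments are different animals. Scan and slide coincide, so the scan was not run as a block of its own, and the row on the slide was run together with the slide. The median standard error of 0.11 limits what 5 rats a group can show, and values at the floor have no order.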
